A study of Caenorhabditis elegans with 32 samples.

Results

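Transcripts of 8 Caenorhabditis elegans genes of DNA replication were followed through 4 generations of worms. They are the 6 genes of the replicative helicase, mcm-2, mcm-3, mcm-4, mcm-5, mcm-6 and mcm-7, with pcn-1 and cdc-6. They were taken by symbol from a table of 46904 genes, and all 8 were found and passed the filter on low counts. They were chosen as markers of dividing germline cells.

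The MCM2-7 proteins form a ring of 6 different subunits that is loaded onto origins of replication before S phase and later unwinds DNA ahead of the fork. CDC-6 is the loader that, with the origin recognition complex and CDT-1, places the ring on DNA, and pcn-1 encodes PCNA, the sliding clamp that holds DNA polymerases on the template. In adult C. elegans the somatic cells no longer divide, so most DNA replication takes place in the germline, in mitotic cells at the distal end of the gonad and in premeiotic S phase, and growing oocytes also store such transcripts for the embryo.

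Poly(A)-selected RNA of whole worms was sequenced in 32 libraries, 2 for each of 16 groups. The groups combine 2 strains (hrde-1 mutant and wild type, WT), 2 conditions (hypoxia and normoxia) and the generations P0, F1, F2 and F3. HRDE-1 is an Argonaute protein of germline nuclei that carries inherited RNA interference, and the labels give the mutant no allele. Per the labels, exposed worms were at the L4 stage, the last larval stage, and were kept for 16 h at 20 °C in 0.1% oxygen before a return to ambient air. Whether F1 to F3 worms were themselves exposed is not in the labels, so hypoxia there names a group and nothing more. No label names separate cultures for the replicates, so p-values measure the spread between these libraries, which may be technical. Generation cannot be told apart from harvest, for which no label gives a date.

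Library totals ran from 9722580 to 16555982 estimated counts in 30 of the libraries, and levels are given as CPM, counts scaled to a common effective library size (TMM). Each deposited F2 WT normoxia column is a mean of 3 values, of which 2 are the equally numbered WT normoxia columns of F1 and F3. The remainder after subtracting these was taken as the F2 WT normoxia library. That is an inference from the values, and no deposited text states it. In the main tests the remainder entered comparisons with F2 WT normoxia only, and all other tests used the 30 other libraries. The scaling factors behind CPM were computed over those 30 libraries, the remainders and the 2 deposited F2 WT normoxia columns together. Both libraries of P0 WT normoxia had the highest scaling factors (1.36 and 1.39, against 0.797 to 1.23 in the 28 others) and the lowest summed levels of the oocyte and germline progenitor markers used below. The hrde-1 transcript was present in the mutants, and so cannot serve as a check of genotype.

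All 8 genes are protein-coding, and their positions in the WBcel235 annotation of Ensembl follow; the build behind the deposited counts is not given in the sources used here. On chromosome I lie mcm-4 (WBGene00003156, 2318291 to 2321817, minus strand) and cdc-6 (WBGene00000382, 4268070 to 4270287, minus strand). On chromosome II lies mcm-2 (WBGene00003154, 12001509 to 12006625, minus strand). On chromosome III lie mcm-5 (WBGene00003157, 4288264 to 4291266, minus strand) and mcm-6 (WBGene00003158, 9794367 to 9798644, plus strand). On chromosome IV lies pcn-1 (WBGene00003955, 4047937 to 4049448, minus strand). On chromosome V lie mcm-3 (WBGene00003155, 15056719 to 15059599, minus strand) and mcm-7 (WBGene00003159, 4347166 to 4349768, plus strand). Exons of 5 of the genes overlap a gene on the opposite strand, by 4 bp in mcm-6 to 73 bp in mcm-3 of 2586 and 2685 exon bases. Whether counting used strand is not given, so reads from those stretches cannot be assigned with certainty.

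Per length, the 6 helicase genes were at similar levels except mcm-7. Over 30 libraries the median level was 99.0 CPM per kb of exon for mcm-2, 98.1 for mcm-3, 87.6 for mcm-4, 83.7 for mcm-5, 81.8 for mcm-6 and 182.6 for mcm-7. The clamp gene pcn-1 was higher, at 304.6 CPM per kb, and the loader gene cdc-6 lowest, at 44.7 CPM per kb. None of the 8 genes was near 0 in any library, and the lowest single value was 50.8 CPM, for cdc-6 in an F3 hrde-1 hypoxia library.

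Across the 15 groups without F2 WT normoxia, mcm-2 varied most and cdc-6 least. The mean of the highest group over that of the lowest was 3.58-fold for mcm-2, 2.60-fold for mcm-7, 2.41-fold for mcm-3, 2.09-fold for mcm-4, 2.04-fold for mcm-6, 1.82-fold for pcn-1, 1.73-fold for mcm-5 and 1.63-fold for cdc-6. The highest group was F1 hrde-1 normoxia for 7 of the 8 genes and F2 WT hypoxia for cdc-6. The lowest was P0 WT normoxia for 6 genes and F3 hrde-1 hypoxia for mcm-5 and cdc-6. In the order of the 15 group means, 1 to 4 of the 14 pairs of neighbours had libraries that did not overlap, so most steps in that order were within the spread of replicates. Only for mcm-2 and mcm-3 were both P0 WT normoxia libraries below all 28 others.

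**Figure D1:**
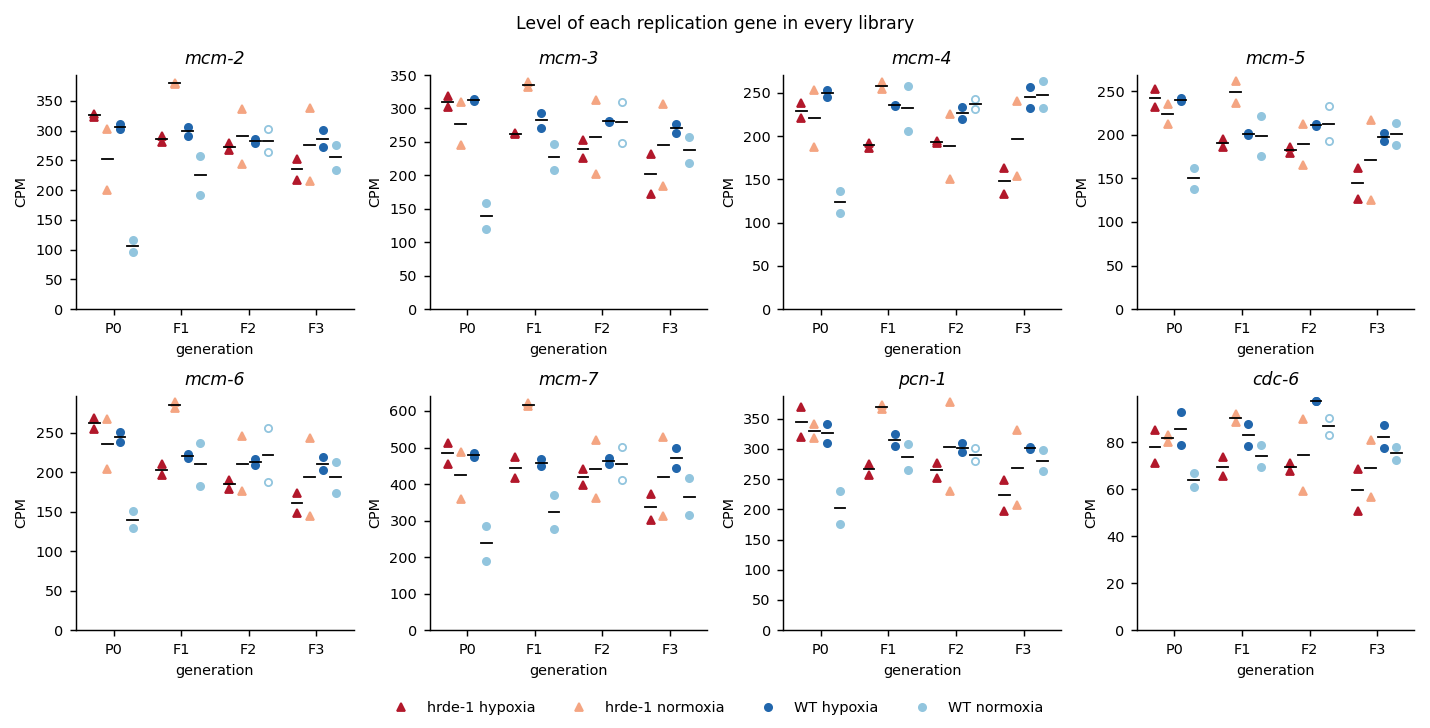
Level of each of the 8 replication genes (CPM, linear axis from 0) in every library, by generation; triangles are hrde-1, circles WT, dark symbols hypoxia, light symbols normoxia, short lines group means of 2 libraries, and open circles the inferred F2 WT normoxia remainder. The P0 WT normoxia circles are the low points of mcm-2 (117 and 95.3 CPM), and the F1 hrde-1 normoxia triangles are its high points (379.9 and 379 CPM).

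In P0 WT worms helicase transcripts were higher in the hypoxia group than in the normoxia group. Here and below, rose and fell mean higher and lower in hypoxia than in normoxia. In P0 WT worms 7 of the 8 genes rose under hypoxia and cdc-6 did not pass the test (edgeR quasi-likelihood test, adjusted p under 0.05). Summed over the helicase genes, P0 WT normoxia was the lowest of all groups at 349.9 CPM per kb. P0 WT hypoxia had 709.9 CPM per kb, and WT hypoxia of F1 to F3 had 650.1 to 656.7. The median log2 fold change of the 8 was 0.91 and their range was 0.43 to 1.53, against a median of -0.14 over all 15536 genes tested. This comparison called 41.8% of all genes tested, and 19% of all genes as higher.

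The largest change was that of mcm-2, whose product has a tail that also binds histones at the fork. It had 302 and 311 CPM in P0 WT hypoxia, against 117 and 95.3 CPM in P0 WT normoxia. The groups lay far apart, with a log2 fold change of 1.53 ± 0.21 (SE, adjusted p = 3.26e-05). For mcm-3 the libraries had 314 and 311 CPM in hypoxia, against 158 and 120.3 CPM in normoxia, a log2 fold change of 1.16 ± 0.21 (adjusted p = 0.000401). In mcm-4 they had 254 and 246 CPM in hypoxia, against 137 and 111 CPM in normoxia, a change of 1.01 ± 0.20 (adjusted p = 0.000627). The MCM-4, MCM-6 and MCM-7 subunits sit together in the ring. For mcm-6 the values were 251 and 238 CPM in hypoxia, against 151 and 129 CPM in normoxia, and the log2 fold change was 0.81 ± 0.20 (adjusted p = 0.00332). Under hypoxia mcm-7 had 484 and 474.5 CPM, against 286 and 189.9 CPM under normoxia, a change of 1.01 ± 0.23 (adjusted p = 0.00229). The normoxia libraries of mcm-7 were the most uneven of the 8 genes.

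The other 3 genes changed less. In hypoxia mcm-5 had 239 and 242 CPM, against 162 and 138 CPM in normoxia, a log2 fold change of 0.68 ± 0.19 (adjusted p = 0.00712). The clamp gene pcn-1 had 341 and 310.4 CPM in hypoxia, against 230.1 and 175 CPM in normoxia, a change of 0.68 ± 0.20 (adjusted p = 0.0118). The loader gene cdc-6 had 92.8 and 79.0 CPM in hypoxia, against 66.8 and 60.8 CPM in normoxia, a change of 0.43 ± 0.18 (adjusted p = 0.0672). In all 8 genes the lower hypoxia library was above the higher normoxia library, as it was in 35.2% of all genes tested. Without P0 WT normoxia replicate 2, 3 genes were called (mcm-2, mcm-3 and mcm-4) in place of 7.

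In later WT generations none of the 8 genes was called by edgeR between hypoxia and normoxia in F1, F2 or F3, nor by DESeq2. The shares of all genes called by edgeR were 13.8%, 0% and 6.6% in the same order. At an unadjusted p under 0.05 the counts were 1 (mcm-7), 0 and 0 members, beside 27.4%, 2.03% and 26.6% of all genes. A fit of the 4 F1 libraries alone called mcm-7, beside 25.2% of all genes. For F1 worms mcm-7 had 449 and 467 CPM in hypoxia, against 277 and 371 CPM in normoxia, a log2 fold change of 0.50 ± 0.23 (adjusted p = 0.17). In F3 it had 499 and 445 CPM in hypoxia, against 416 and 314 CPM in normoxia, a change of 0.37 ± 0.23 (adjusted p = 0.3). In both generations its groups did not overlap, while mcm-4 and mcm-5 overlapped and had changes between -0.02 and 0.02. Of the 8 genes, 3 had both hypoxia libraries above both normoxia libraries in F1, 1 in F2 and 3 in F3, beside 29.6%, 13.3% and 28.6% of all genes. In F2, against the inferred remainder, changes ran from -0.07 to 0.17.

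The difference between generations was tested itself. The hypoxia effect in WT F1 and F3 was smaller than in P0 for 4 of the 8 genes, mcm-2, mcm-3, mcm-4 and mcm-5, and for no gene larger. This test called 15.4% of all genes, and 9.67% as lower. For mcm-2 the later effect minus the P0 effect was -1.24 ± 0.25 on the log2 scale (adjusted p = 0.00254). For mcm-4 it was -1.01 ± 0.24 (adjusted p = 0.0083), for mcm-3 -0.92 ± 0.26 (adjusted p = 0.022) and for mcm-5 -0.68 ± 0.23 (adjusted p = 0.0483). The gene mcm-6 just missed the threshold at -0.71 ± 0.24 (adjusted p = 0.0507). No gene was called without P0 WT normoxia replicate 2, and 2 genes (mcm-2 and mcm-4) without P0 WT hypoxia replicate 1.

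In hrde-1 mutants no member was called between hypoxia and normoxia in any generation by edgeR or by DESeq2. From P0 to F3 the shares of all genes called by edgeR were 5.84%, 8.36%, 0% and 0.0129%. At an unadjusted p under 0.05 the counts were 0, 3, 0 and 1 members in that order, beside 23%, 25.3%, 5.05% and 6.55% of all genes. In P0 mutants mcm-2 had 323 and 328 CPM in hypoxia, against 303 and 200.5 CPM in normoxia. Those groups did not overlap, as in 23.2% of all genes, but the normoxia libraries were far apart and the log2 fold change was 0.37 ± 0.20 (adjusted p = 0.278). The 7 other members overlapped there, with changes from -0.07 to 0.19.

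In F1 mutants all 8 genes were lower in both hypoxia libraries than in both normoxia libraries, as were 31.2% of all genes tested. For mcm-2 the hypoxia libraries had 291 and 281 CPM, against 379.9 and 379 CPM in normoxia. For mcm-6 they had 210.1 and 196 CPM in hypoxia, against 289 and 282 CPM in normoxia, the change furthest from 0 of the 8 at -0.49 ± 0.20 (adjusted p = 0.129). Changes of the 8 ran from -0.49 to -0.36 with adjusted p from 0.129 to 0.29, and the median over all genes was 0.05. These normoxia libraries are also the hrde-1 side of the F1 strain comparison given further on. With the 4 libraries fitted alone all 8 genes were called lower, and that fit called 34% of all genes. In F3 mutants the normoxia replicates differed more from each other than the conditions did, as in mcm-2 with 252 and 217 CPM in hypoxia, against 337 and 215 CPM in normoxia. Without F3 hrde-1 normoxia replicate 2, 3 members (mcm-4, mcm-5 and mcm-6) were called lower in F3, beside 17.2% of all genes.

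**Figure D2:**
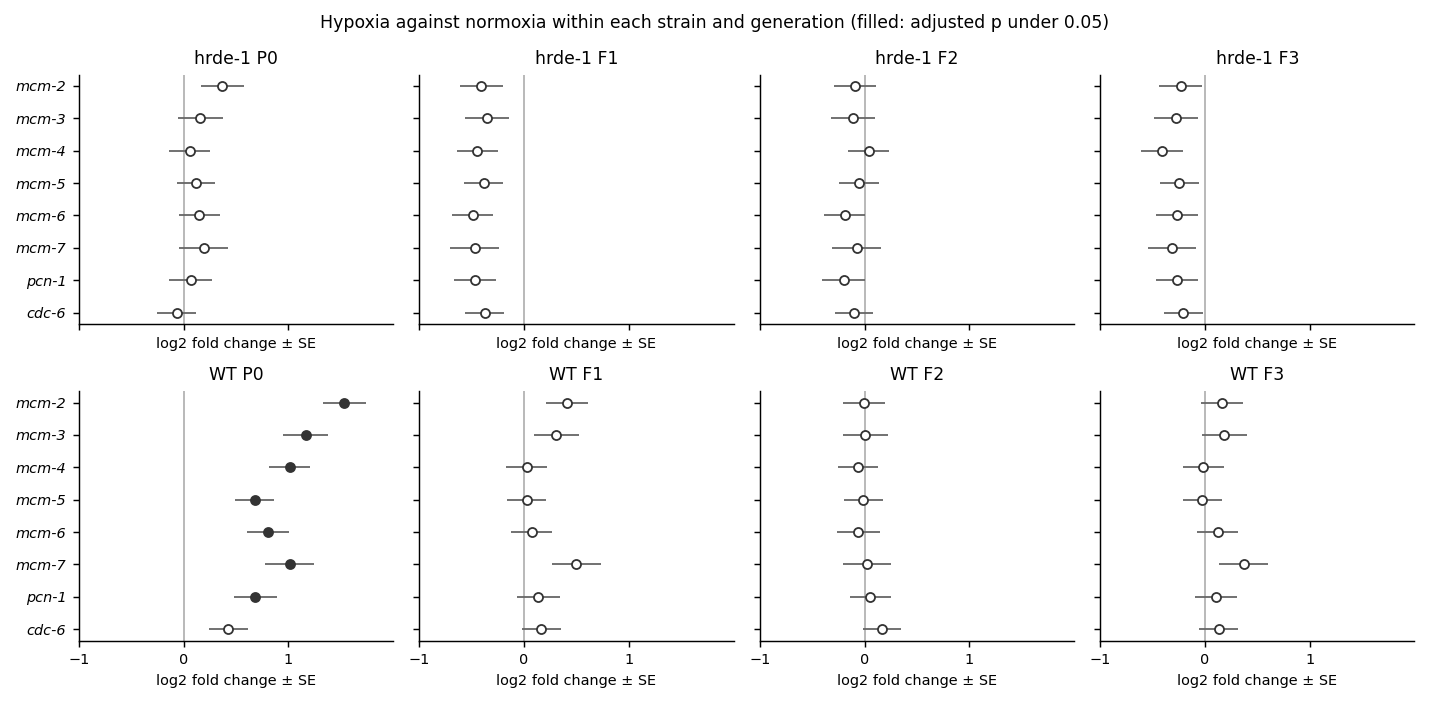
Log2 fold change of hypoxia over normoxia (horizontal axis, bars are ± SE) of each replication gene in each strain and generation, hrde-1 in the upper row and WT in the lower; filled points have an adjusted p under 0.05. Filled points appear in WT P0 only (7 of 8 genes), and the 8 points of hrde-1 F1 lie between -0.49 and -0.36.

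The hypoxia effect was then compared between strains. In P0 the effect in hrde-1 minus that in WT was negative for all 8 genes, with a median of -0.74 on the log2 scale, and none was called by edgeR. That test called 0.348% of all genes. DESeq2 called 3 members (mcm-2, mcm-3 and mcm-4), beside 5.32% of all genes, and 7 members had an unadjusted p under 0.05, beside 17.5% of all genes. The value for mcm-2 was -1.16 ± 0.29 (adjusted p = 0.055). In F1 the median was -0.58 and again none was called by edgeR, with mcm-7 at -0.97 ± 0.33 (adjusted p = 0.0554). There edgeR called 12.7% of all genes. DESeq2 called 2 members (mcm-2 and mcm-7), beside 20.6% of all genes, and 4 members had an unadjusted p under 0.05, beside 33.5%. A fit of the 8 F1 libraries alone called all 8 members, and it called 39.1% of all genes. In F2 and F3 no member was called by edgeR, beside 0% and 0.657% of all genes, nor by DESeq2. At an unadjusted p under 0.05 there were 0 and 1 members, beside 2.36% and 20.9% of all genes.

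In P0 normoxia mutants had more helicase transcript than WT worms, and markers of the germline were higher with it, as given further on. There 7 of 8 genes were higher in hrde-1 normoxia and cdc-6 did not pass, beside 22.6% of all genes called and 15.2% called higher. The median log2 fold change was 0.79. For mcm-2 the hrde-1 libraries had 303 and 200.5 CPM, against 117 and 95.3 CPM in WT, a log2 fold change of 1.25 ± 0.20 (adjusted p = 0.000265). For mcm-7 they had 488 and 359 CPM in hrde-1, against 286 and 189.9 CPM in WT, a change of 0.83 ± 0.23 (adjusted p = 0.0149). In both genes the hrde-1 replicates were uneven. All 8 genes had both hrde-1 libraries above both WT libraries, as had 30.3% of all genes. None was called when the 4 libraries were fitted alone (adjusted p from 0.112 to 0.279), a fit that called 0.813% of all genes. Without P0 WT normoxia replicate 2 the call remained for mcm-2 alone, and without P0 hrde-1 normoxia replicate 1 for mcm-2 and mcm-3. This comparison uses the same 2 P0 WT normoxia libraries as the hypoxia comparison above, so the 2 results are not independent.

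The F1 comparison of the strains in normoxia sets no P0 library against another, but its fit shares scaling and the estimate of spread with the P0 groups. In it 3 genes were higher in hrde-1, mcm-2, mcm-3 and mcm-7, beside 34.5% of all genes called and 12.3% called higher. For mcm-7 the values were 620.5 and 614 CPM in hrde-1, against 277 and 371 CPM in WT, a log2 fold change of 0.93 ± 0.23 (adjusted p = 0.006). In mcm-2 they were 379.9 and 379 CPM in hrde-1, against 191 and 258 CPM in WT, a change of 0.76 ± 0.20 (adjusted p = 0.00841). In contrast mcm-4 overlapped, with 254 and 263 CPM in hrde-1, against 206 and 259 CPM in WT, a change of 0.16 ± 0.20 (adjusted p = 0.552). The 7 other genes did not overlap, as in 30.2% of all genes. The call of mcm-3 was lost when any of the 4 libraries was left out. No member was called without F1 WT normoxia replicate 1, while 7 were called with the 4 libraries fitted alone, a fit that called 49.3% of all genes. In F2 and F3 normoxia no member was called by edgeR, beside 4.51% and 8.9% of all genes, nor by DESeq2. No member had an unadjusted p under 0.05 there, beside 21.9% and 23% of all genes. Without F3 hrde-1 normoxia replicate 1, mcm-4 and mcm-5 were called lower in F3, beside 10.6% of all genes.

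Within the hypoxia groups no member was called between strains by edgeR or DESeq2 in P0, F1 or F2, and edgeR called 2.14%, 1.98% and 6.43% of all genes. At an unadjusted p under 0.05 there were 0, 0 and 1 members, beside 12.2%, 10.7% and 20.5% of all genes. A fit of the 4 F1 libraries alone called mcm-4 lower, beside 7.53% of all genes. In P0 hypoxia mcm-2 had 323 and 328 CPM in hrde-1, against 302 and 311 CPM in WT. In P0 hypoxia 2 members had both hrde-1 libraries above both WT libraries and 1 had them below, beside 28.6% and 24% of all genes, and in F1 hypoxia 6 had them below, beside 25.3%. In F2 hypoxia both hrde-1 libraries were below both WT libraries in all 8 genes, as in 26.6% of all genes, and a fit of these libraries alone called 3 (mcm-3, mcm-4 and cdc-6), beside 21.8% of all genes. The F2 change furthest from 0 was that of cdc-6, with 67.7 and 71.1 CPM in hrde-1, against 97.6 and 97.4 CPM in WT, at -0.49 ± 0.18 (adjusted p = 0.127).

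In F3 hypoxia 1 gene, mcm-4, was called lower in hrde-1, beside 10.8% of all genes called and 5.63% called lower. It had 163 and 133 CPM in hrde-1, against 256 and 233 CPM in WT, a log2 fold change of -0.72 ± 0.20 (adjusted p = 0.0254). All 8 genes had both hrde-1 libraries below both WT libraries, as had 31.2% of all genes, and the changes ran from -0.72 to -0.29 with a median of -0.44. For mcm-2 the values were 252 and 217 CPM in hrde-1, against 300.5 and 272 CPM in WT. The call of mcm-4 was lost without any 1 of the 4 libraries, and a fit of these libraries alone called 2 (mcm-4 and mcm-7), beside 18.9% of all genes.

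**Figure D3:**
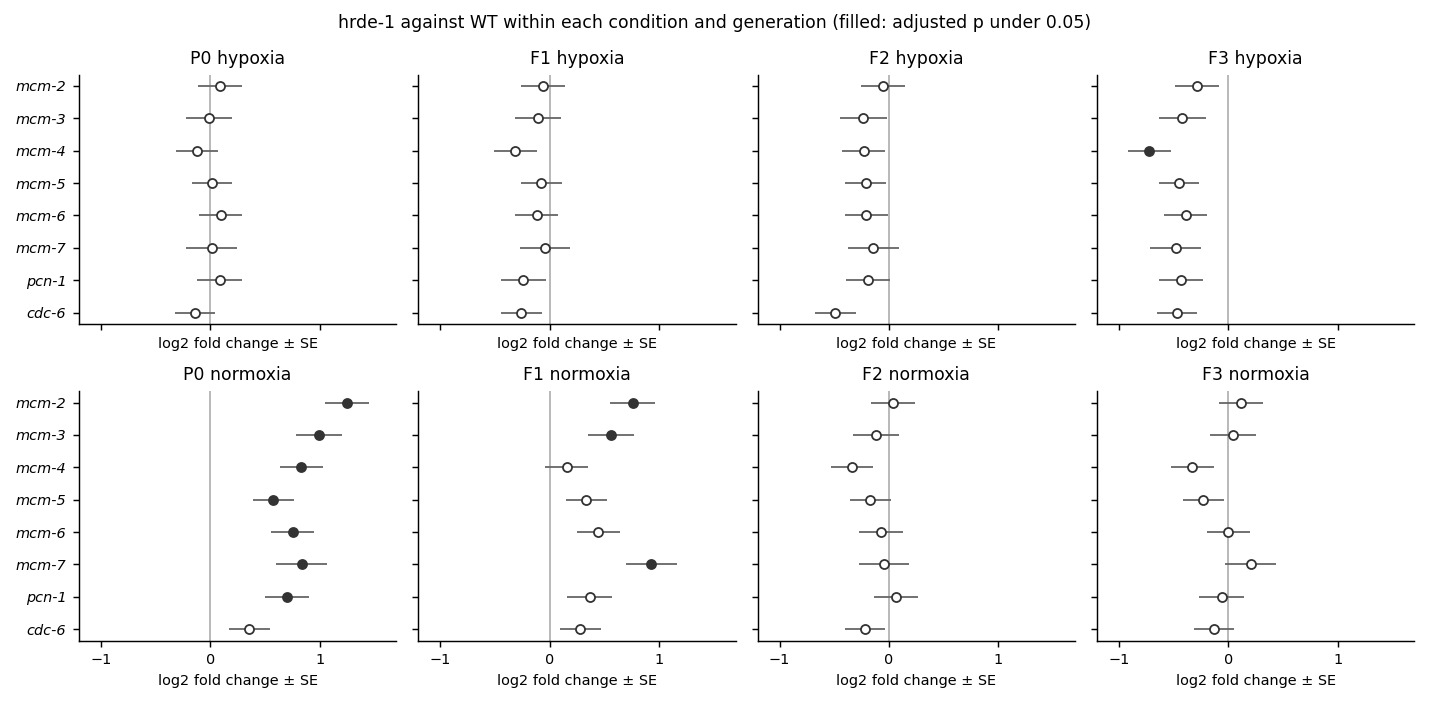
Log2 fold change of hrde-1 over WT (horizontal axis, bars are ± SE) of each replication gene in each generation, with hypoxia groups in the upper row and normoxia groups in the lower. Filled points have an adjusted p under 0.05. All 8 points lie right of 0 in P0 and F1 normoxia and left of 0 in F1, F2 and F3 hypoxia. In F3 hypoxia mcm-4 at -0.72 is filled.

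Later generations were set against P0 within each strain and condition. In WT normoxia 7 of 8 genes were higher in F1 and F3 than in P0, beside 44.4% of all genes called and 23% called higher. For mcm-2 the libraries of F1 and F3 had 191, 258, 276 and 234 CPM, against 117 and 95.3 CPM in P0, a log2 fold change of 1.18 ± 0.18 (adjusted p = 4.22e-05). For mcm-4 the change was 0.95 ± 0.18 (adjusted p = 0.000238), and cdc-6 did not pass at 0.23 ± 0.16 (adjusted p = 0.258). Without P0 WT normoxia replicate 2, 2 genes were called (mcm-2 and mcm-4), and 3 were called (mcm-2, mcm-3 and mcm-4) without F1 WT normoxia replicate 2 or without F3 WT normoxia replicate 1. In WT hypoxia mcm-2 stood at 302 and 311 CPM (P0), 291 and 306 CPM (F1), 286 and 279 CPM (F2), then 300.5 and 272 CPM (F3). No member was called there by edgeR, beside 9.1% of all genes, nor by DESeq2, and none had an unadjusted p under 0.05, beside 22.2% of all genes. A fit of these libraries alone called 2 members lower (mcm-5 and mcm-6), beside 22.8% of all genes.

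In hrde-1 hypoxia 2 of the 8 genes, mcm-5 and mcm-6, were called lower in the later generations than in P0, beside 18.4% of all genes called and 7.01% called lower. For mcm-5 the libraries had 253 and 232 CPM (P0), 196 and 187 CPM (F1), 186 and 179 CPM (F2), then 162 and 127 CPM (F3). The log2 fold change of the 3 later generations over P0 was -0.50 ± 0.15 (adjusted p = 0.0233), with each later library below both P0 libraries. For mcm-6 it was -0.52 ± 0.16 (adjusted p = 0.0244). No member was called without P0 hrde-1 hypoxia replicate 1, without P0 hrde-1 hypoxia replicate 2 or without F3 hrde-1 hypoxia replicate 2, and mcm-5 alone without F2 hrde-1 hypoxia replicate 2. A fit of these 8 libraries alone called 6 members lower (the same 2 with mcm-2, mcm-3, mcm-4 and pcn-1), beside 29.9% of all genes. In hrde-1 normoxia no member was called by edgeR, beside 24.4% of all genes, nor by DESeq2, and none had an unadjusted p under 0.05, beside 36.7% of all genes. The hypoxia effect in later mutants minus that in P0 mutants was called for no member by edgeR, beside 1.71% of all genes, nor by DESeq2. At an unadjusted p under 0.05 it had 1 member, beside 21.5% of all genes.

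The balance among the 6 helicase genes differed between groups. Here each gene's CPM per kb is given as a share of the sum over mcm-2 to mcm-7 in the same library, which does not depend on library scaling, and no test was made. In P0 WT normoxia mcm-2 made up 10.45% and 11.05%, against 12.96% to 18.08% in the 28 other libraries. In the same libraries mcm-5 made up 16.96% and 18.72%, against 11.81% to 16.04% in the 28 others. So mcm-2 was at its lowest share and mcm-5 at its highest in P0 WT normoxia, with no overlap. The share of mcm-3 was the steadiest, at 14.67% to 16.67% over all 30 libraries.

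In F1 and F3 the shares of mcm-4 and mcm-7 set WT normoxia apart. In F1 and F3 WT normoxia mcm-4 made up 15.89% to 16.87%, above its 13.07% to 14.44% in WT hypoxia of F1 to F3. In hrde-1 of F1 to F3 its share was 11.37% to 13.31% in hypoxia and 11.44% to 13.4% in normoxia. Its counterpart mcm-7 made up 23.56% to 26.75% in F1 and F3 WT normoxia, below 28.39% to 30.79% in the other later groups. The remainders taken as F2 WT normoxia had 14.9% and 13.02% for mcm-4 and 28.2% and 28.59% for mcm-7, outside the ranges of F1 and F3 WT normoxia.

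**Figure D4:**
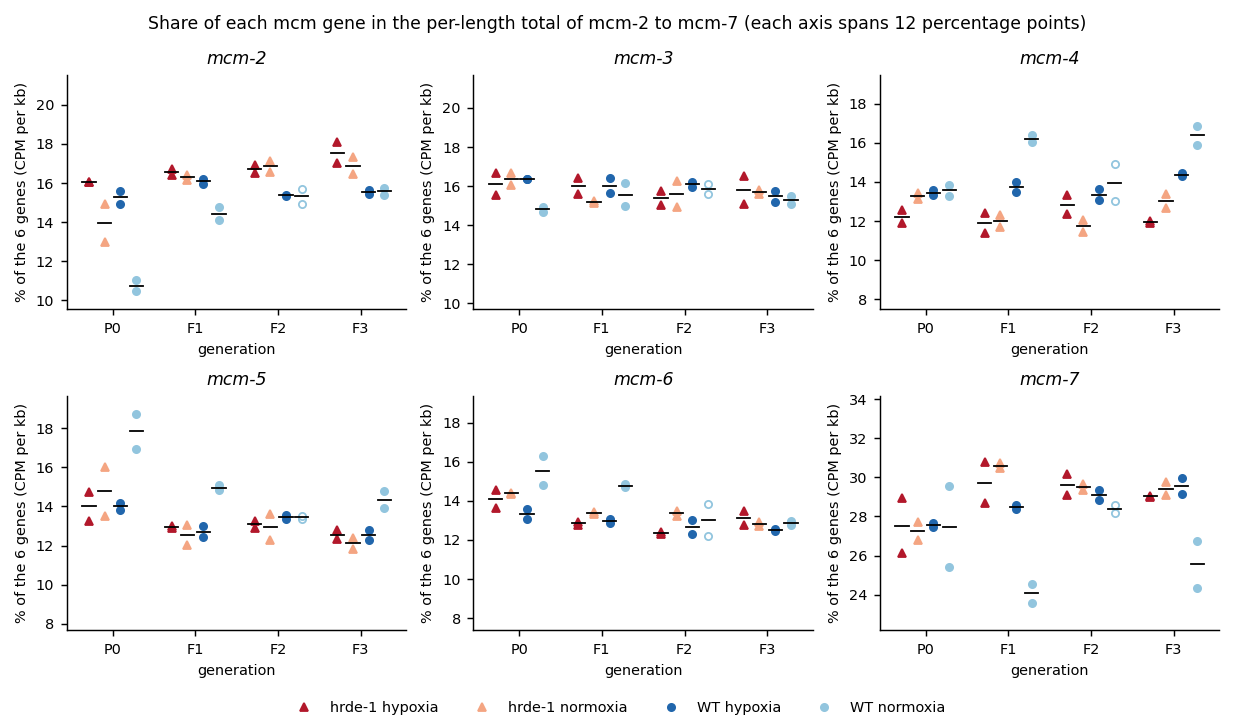
Share of each helicase gene (percent) in the summed CPM per kb of mcm-2 to mcm-7 in every library, by generation, with symbols as in the plot of levels; each vertical axis spans 12 percentage points and does not start at 0. The 2 P0 WT normoxia circles are lowest for mcm-2 (10.45% and 11.05%) and highest for mcm-5 (16.96% and 18.72%), and mcm-4 is highest in F1 and F3 WT normoxia.

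Summed over the 6 genes, helicase transcript in P0 averaged 718 ± 8.54 CPM per kb in hrde-1 hypoxia, 633 ± 122 in hrde-1 normoxia, 709.9 ± 6.05 in WT hypoxia and 349.9 ± 63.1 in WT normoxia (SD, n = 2 each). The highest group was F1 hrde-1 normoxia with 824 ± 11.1, and F3 hrde-1 hypoxia had 475 ± 70.5. The F3 hrde-1 normoxia libraries were the most uneven, with 725 and 438 CPM per kb (SD 203).

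Other replication genes moved with the 8 in P0 WT worms, in a comparison that called 41.8% of all genes tested and 19% as higher. Of 38 such genes in 5 lists (origin licensing, helicase activation, polymerases and primase, clamp loader and lagging strand, nucleotide supply), 21 rose under hypoxia and none fell, with a median log2 fold change of 0.53. The count was 8 without P0 WT normoxia replicate 2. Of the 7 licensing genes 5 rose, among them gmn-1 (geminin, an inhibitor of CDT-1), at 0.90 ± 0.21. Of the 10 genes of helicase activation 3 rose, led by dnsn-1, the DONSON homolog, with 58.8 and 58.2 CPM in hypoxia, against 27.2 and 21.7 CPM in normoxia (1.26 ± 0.18). Polymerase genes rose in 4 of 6 cases, including pola-1 (polymerase alpha, 1.16 ± 0.18) and pole-1 (polymerase epsilon, 1.15 ± 0.20). On the lagging strand 6 of 11 rose, among them rfc-1 of the clamp loader (0.97 ± 0.17) and dna-2, which trims Okazaki flaps (1.16 ± 0.21). In nucleotide supply 3 of 4 rose, such as rnr-1, the large subunit of ribonucleotide reductase, at 0.90 ± 0.22.

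Genes that time the cell cycle moved in both directions in the same comparison, where 41.8% of all genes were called and 19% called higher. Of 11 genes of S-phase control 4 rose in P0 WT hypoxia, among them cye-1 (cyclin E, 1.09 ± 0.21), tim-1 (fork protection, 1.05 ± 0.17) and dpl-1 (the DP partner of E2F, 1.01 ± 0.22). In the same list cki-1, an inhibitor of cyclin-dependent kinases, fell by 3.25 on the log2 scale, with 4.63 and 3.26 CPM in hypoxia, against 32.5 and 43.1 CPM in normoxia. Of 12 mitotic genes 8 rose, among them cyb-1 (cyclin B, 0.81 ± 0.16) and icp-1 (a chromosomal passenger protein, 0.96 ± 0.18).

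Between the strains in P0 normoxia, 11 of the 38 genes were higher in hrde-1 and none lower (median 0.40, 2 higher without P0 WT normoxia replicate 2), led by dnsn-1 at 1.10 ± 0.18. In F1, 8 were higher in hrde-1 and none lower (median 0.26, none higher without F1 WT normoxia replicate 1), such as rnr-1 with 518 and 495 CPM in hrde-1, against 277 and 353 CPM in WT. There cki-1 was again lower, with 3.20 and 2.61 CPM in hrde-1, against 15.6 and 11.4 CPM in WT (-2.21 ± 0.54). The shares of all genes called higher in hrde-1 were 15.2% in P0 normoxia and 12.3% in F1 normoxia. In F1 mutants 3 of the 38 were lower in the hypoxia group and none higher, beside 8.36% of all genes called. They were lig-1 (DNA ligase, -0.52 ± 0.15), rpa-2 (a subunit of the single-strand binding protein, -0.46 ± 0.14) and tyms-1 (thymidylate synthase, -0.95 ± 0.23). That count was 0 without F1 hrde-1 hypoxia replicate 1 and at most 1 without any other of the 4 libraries.

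Beside the counts that follow, 5.63% of all genes were called lower in hrde-1 in F3 hypoxia, and 7.01% lower in later hrde-1 hypoxia. The WT difference in hypoxia effect called 9.67% lower, and F1 and F3 against P0 in WT normoxia called 23% higher. In F3 hypoxia 10 of the 38 were lower in hrde-1 and none higher, with a median of -0.47. They included pri-1 of the primase (-0.76 ± 0.19), the GINS subunit sld-5 (-0.75 ± 0.19) and dut-1, the dUTPase (-0.86 ± 0.21). The count was 0 without F3 WT hypoxia replicate 1 and at most 2 without any other of the 4 libraries. Over the later generations of hrde-1 hypoxia 12 of the 38 were lower than in P0 and none higher, with tyms-1 furthest from 0 of those named at -0.92 ± 0.17, and 1 was called without P0 hrde-1 hypoxia replicate 2. The hypoxia effect in WT F1 and F3 was smaller than in P0 for 11 of the 38 and larger for none, such as dnsn-1 (-1.08 ± 0.21), and for none without P0 WT normoxia replicate 2. In WT normoxia 14 of the 38 were higher in F1 and F3 than in P0 and 1, sld-5, was lower, and 4 were higher without P0 WT normoxia replicate 2.

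Marker genes of other cells in the worm moved in the same comparisons, and in bulk RNA fewer cells of a type and less RNA per cell cannot be told apart. Hypoxia against normoxia in P0 WT worms called 41.8% of all genes tested, and 19% as higher. In P0 WT worms all 13 oocyte and eggshell genes rose under hypoxia (median 1.46), as did 11 of 12 genes of germline progenitors (median 1.17) and 7 of 12 meiotic genes. Their summed level for oocyte genes was 17094 and 16123 CPM in hypoxia, against 6115 and 4044 CPM in normoxia. Of 12 intestinal genes 5 rose and 2 fell, summing to 62195 and 57652 CPM in hypoxia, against 35172 and 31643 CPM in normoxia. Of 12 muscle genes 2 rose and 1 fell, summing to 5979 and 5888 CPM in hypoxia, against 5858 and 5343 CPM in normoxia. In contrast 10 of 12 neuronal genes fell (median -1.31), summing to 429 and 416 CPM in hypoxia, against 748 and 742 CPM in normoxia. The sum of the 12 cuticle genes was also lower, at 637 and 721 CPM in hypoxia, against 1058 and 1296 CPM in normoxia. None of the 12 germline progenitor, 13 oocyte, 12 neuronal, 12 muscle, 12 intestinal or 12 cuticle genes was at 0 in both libraries of any group. Of 13 sperm genes 6 rose, and their sum was 29.2 and 36.3 CPM in hypoxia, against 7.72 and 7.51 CPM in normoxia, where spe-38 was at 0. Genes of the early embryo summed to 34.9 and 37.4 CPM in hypoxia, against 63.0 and 62.9 CPM in normoxia, with sdz-23 at 0 in normoxia and med-1 at 0 in hypoxia. The part of these differences in the replication result was not tested.

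Other comparisons with P0 groups had germline markers moving with the replication genes. All of those given here but later hrde-1 hypoxia against P0 rest on P0 WT normoxia. Of all genes, 22.6% were called between the strains in P0 normoxia (15.2% higher in hrde-1). Between generations of WT normoxia 44.4% were called (23% higher). The WT difference in hypoxia effect called 15.4% (9.67% lower), and later hrde-1 hypoxia against P0 called 18.4% (7.01% lower). Between the strains in P0 normoxia all 13 oocyte genes were higher in hrde-1 (median 1.11) and 11 of 12 progenitor genes (median 0.94), and these counts were 3 and 4 without P0 WT normoxia replicate 2. Oocyte genes summed to 16389 and 9444 CPM in P0 hrde-1 normoxia, against 6115 and 4044 CPM in P0 WT normoxia. There 8 of 13 sperm genes were also higher in hrde-1 and 2 of 12 neuronal genes lower. Between generations of WT normoxia 12 of 13 oocyte genes (median 0.84), 11 of 12 progenitor genes (median 0.80), all 13 sperm genes and 10 of 12 muscle genes were higher in F1 and F3 than in P0, and 8 of 12 neuronal genes were lower. Without P0 WT normoxia replicate 2 the oocyte and progenitor counts were 2 and 6. Muscle genes summed to 11955 to 14799 CPM in F1 and F3 WT normoxia, against 5858 and 5343 CPM in P0 WT normoxia. The hypoxia effect in WT F1 and F3 was smaller than in P0 for 10 of 13 oocyte genes and 7 of 12 progenitor genes (0 and 2 without P0 WT normoxia replicate 2). In later hrde-1 hypoxia 5 of 13 oocyte genes and 2 of 12 progenitor genes were lower than in P0, and 1 progenitor gene, 11 of 13 sperm genes and 10 of 12 muscle genes were higher. The part of these differences in the results was not tested.

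Relative to the oocyte genes the replication genes were highest in P0 WT normoxia, a description with no test. The summed CPM of the 8 genes was 0.214 and 0.252 times that of the 13 oocyte genes in P0 WT normoxia, against 0.121 to 0.192 times in the 28 other libraries. Against the 12 progenitor genes it was 0.749 and 0.787 times in P0 WT normoxia, and 0.487 to 0.781 times in the 28 others, which overlap.

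In F1 the strain comparison and the hypoxia comparison of mutants had other markers beside them. The F1 normoxia strain comparison called 34.5% of all genes (12.3% higher in hrde-1), and the F1 mutant comparison called 8.36%. In F1 normoxia 11 of 13 oocyte genes were higher in hrde-1 (2 without F1 WT normoxia replicate 1), while 9 of 12 cuticle genes (median -3.81), 7 of 12 muscle genes, 6 of 12 neuronal genes and 10 of 13 sperm genes were lower and 1 sperm gene was higher. In F1 mutants 7 of 12 cuticle genes (median 3.63), 9 of 12 muscle genes and 10 of 13 sperm genes were higher in the hypoxia group. No oocyte gene was called there (median -0.51). Cuticle genes summed to 2116 and 1922 CPM in F1 hrde-1 hypoxia, against 581 and 638 CPM in F1 hrde-1 normoxia. Progenitor genes summed to 3352 and 3336 CPM in F1 hrde-1 hypoxia, and 3904 and 4060 CPM in F1 hrde-1 normoxia. They summed to 2563 and 2851 CPM in F1 WT normoxia. In F3 hypoxia 4 of 12 cuticle genes and 5 of 13 sperm genes were higher in hrde-1, beside 10.8% of all genes called. Oocyte genes summed there to 13201 and 9936 CPM in hrde-1, against 15450 and 14554 CPM in WT. Progenitor genes summed to 3262 and 2772 CPM in hrde-1, against 3555 and 3446 CPM in WT. The uneven F3 hrde-1 normoxia replicates differed likewise, with 2286 and 1397 CPM for the 8 replication genes, 18083 and 10789.5 CPM for oocyte genes and 1173 and 3307 CPM for cuticle genes. Their part in the results was not tested either.

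**Figure D5:**
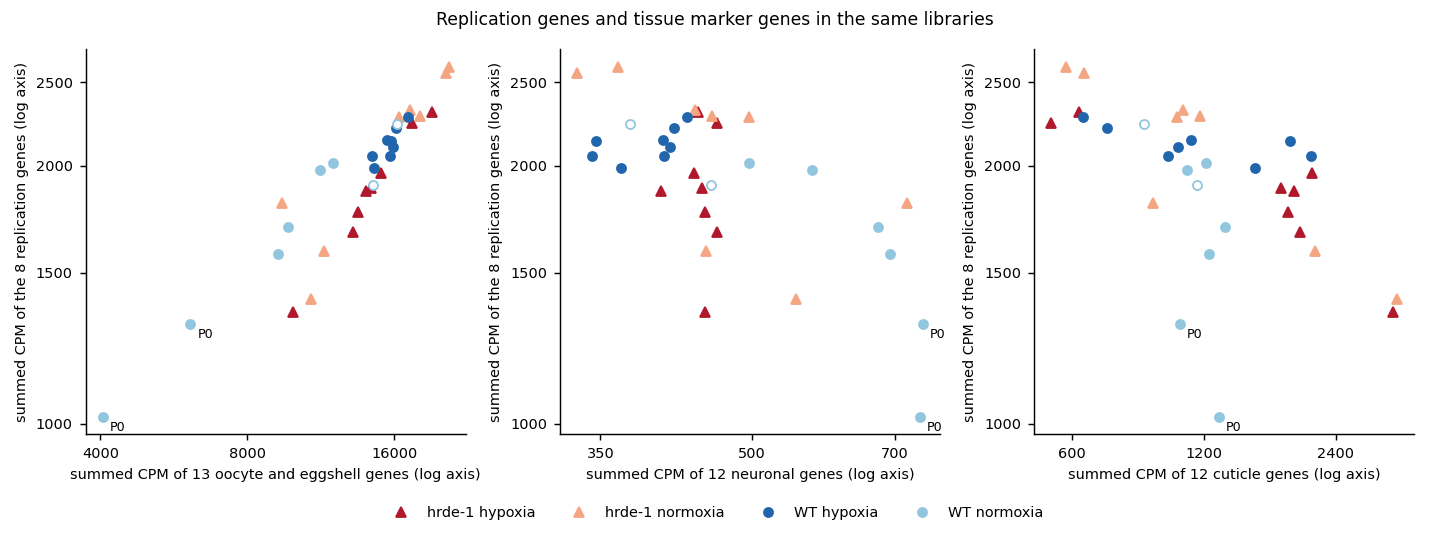
Summed CPM of the 8 replication genes (vertical, log axis) against summed CPM of 13 oocyte and eggshell genes, 12 neuronal genes and 12 cuticle genes (horizontal, log axes), one symbol per library with symbols as in the plot of levels. The 2 P0 WT normoxia libraries are lowest for replication genes (1307 and 1019 CPM) and for oocyte genes (6115 and 4044 CPM) and highest for neuronal genes (748 and 742 CPM).

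The 8 genes varied together over the 15 group means, with pairwise Pearson's r of log2 CPM between 0.562 for mcm-2 and cdc-6 and 0.981 for mcm-6 and pcn-1. These r values describe 15 groups that share scaling and tissue make-up. Among 7409 genes with a mean of at least 10 CPM, the 10 with a gene-class symbol most like the mean of mcm-2 to mcm-7 had r from 0.970 to 0.976. They were gfat-2 (an enzyme of hexosamine synthesis), rnr-1, era-1, npp-8 (a nuclear pore protein), cyb-1, glp-1 (the Notch receptor of germline stem cells), oma-1 (an oocyte maturation factor), nmy-2 (non-muscle myosin), nasp-2 (a histone chaperone homolog) and isw-1 (a chromatin remodeler).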

How the data were processed

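Poly(A) RNA of whole worms was sequenced in 32 libraries, 2 in each of 16 groups. The authors deposited 1 table of estimated counts (expected counts) per gene, not normalized, which they made from aligned reads per the submitters' processing notes. At least 97.79% of a library's values were whole numbers in 30 libraries, against 72.47% and 71.55% in the 2 F2 WT normoxia columns. Per the submitters' processing notes, cutadapt 2.5, Bowtie2, featureCounts, RSEM and edgeR were used, with no roles given, and the genome build is not given in the sources used here. Every column was mapped to a sample by its name. The planned test needs whole counts, and values were therefore rounded before the fit. They were fitted with edgeR 4.0.16 in R 4.3.3 (quasi-likelihood test, 1 mean per group, TMM scaling, filterByExpr), with Benjamini-Hochberg adjustment over 15536 genes in 30 libraries and a threshold of 0.05. The comparisons numbered 26.

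The F2 WT normoxia columns were left out of that fit. Tripling each and subtracting the equally numbered WT normoxia columns of F1 and F3 gave no value below 0 by more than 0.05, and comparisons with F2 WT normoxia used this remainder in a fit of 32 libraries and 15545 genes. SE is the log2 fold change divided by the square root of F. DESeq2 1.42.0, other filters and scaling, a replicate block, fits of the groups compared alone and fits without each library were the alternatives. The edgeR test was checked on simulated data.

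The 8 genes and all gene lists were chosen with earlier results of these data known. From each other replication list, up to 3 called genes per direction with the smallest p could be named, or up to 2 as values where none was called. The genes most like the helicase genes were the 10 with the highest r among genes outside the 8 with a gene-class symbol and a mean of at least 10 CPM.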

Additional observations from a re-analysis of the deposited data

Results flagged for a closer look

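The hypoxia effect differed between generations of WT worms for 4 genes, by a test of the difference itself (edgeR quasi-likelihood test, adjusted p under 0.05 over all genes). The effect in F1 and F3 minus that in P0 was -1.24 for mcm-2, -0.92 for mcm-3, -1.01 for mcm-4 and -0.68 for mcm-5, all on the log2 scale. All 4 rest on the P0 WT normoxia libraries, and none was called without replicate 2 of that group.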

How the results depend on the processing

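With the groups compared fitted alone, the count of called genes became 1 for hypoxia in WT F1, 8 for hypoxia in hrde-1 F1, 0 for the strains in P0 normoxia, 7 in F1 normoxia, 1 in F1 hypoxia, 3 in F2 hypoxia and 2 in F3 hypoxia. It became 8 for the F1 difference in hypoxia effect between strains, 2 for later WT hypoxia and 6 for later hrde-1 hypoxia. For the P0 difference in hypoxia effect between strains, 1 gene was called with DESeq2 size factors, with no filter, with a filter of 5 CPM in 2 libraries or with the F2 WT normoxia remainders added, and 3 by DESeq2. For the F1 difference the counts were 2 with DESeq2 size factors, 1 with no filter, 2 with the 5 CPM filter and 2 by DESeq2. The cause was not tested.

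Leaving out 1 library at a time gave 3 to 8 called genes for hypoxia in WT P0, 0 to 1 in hrde-1 P0 and 0 to 3 in hrde-1 F3. For the strains it gave 1 to 7 in P0 normoxia, 0 to 2 in F1 normoxia, 0 to 2 in F3 normoxia and 0 to 0 in F3 hypoxia. Differences in hypoxia effect between strains had 0 to 3 in P0, 0 to 2 in F1 and 0 to 3 in F3. Between generations they had 0 to 5 in WT and 0 to 2 in hrde-1. Later against P0, the counts were 2 to 7 in WT normoxia, 0 to 1 in hrde-1 normoxia and 0 to 3 in hrde-1 hypoxia, and every other comparison had 0 to 0.

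As deposited, the F2 WT normoxia columns gave mean levels of 252 CPM for mcm-2, 376 CPM for mcm-7 and 77.8 CPM for cdc-6, against 283, 456 and 86.8 CPM for the remainders. With the replicate number as a block, 5 genes in place of 4 were called for the WT difference between generations. Same-numbered libraries had no common direction of deviation over 105 pairs of groups (r from -0.682 to 0.551, median -0.00877). Of these pairs, 18 had r above 0.1 and 19 below -0.1. Pairing within particular groups was not tested. Of 2688 recomputed values 123 changed sign, and 0 of these were of called genes.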
